A study of Mus musculus with 9 samples.

Results

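The 10 genes described here, Castor1, Castor2, Depdc5, Nprl2, Nprl3, Sesn1, Sesn3, Flcn, Fnip1 and Rragd, encode proteins that tell the kinase complex mTORC1 whether nutrients are present. They were taken by symbol from 28137 genes of an RNA-seq table of RAW264.7 cells, a mouse macrophage-like leukemia line. All 9 libraries came from cells grown in DMEM with 10% fetal bovine serum, transfected for 6 hours with 60 nM siRNA, returned to complete medium, given lipopolysaccharide (LPS) at 100 ng/ml after 12 hours, and harvested after 24 hours of polarization. Of these, 3 received a negative control siRNA (NC siRNA), 3 an siRNA against SFRP2 (SFRP2 siRNA), a secreted frizzled-related protein that acts on Wnt signalling, and 3 an siRNA against RAB6A (RAB6A siRNA), a small GTPase of Golgi vesicle traffic. The comparisons with NC siRNA ask what differed with each targeting siRNA in LPS-treated macrophages. The methods of the study's paper give another medium, siRNA dose and timing for this line and add IFN-γ, and the description above follows the labels. The library titles also carry the tag 6H, whose meaning they do not state. The labels do not say whether the libraries of a group came from separate cultures, nor whether the SFRP2 siRNA libraries shared the same siRNA, so the SDs and p-values measure the spread between these libraries, which may be technical. The 10 genes were chosen by their FPKM values in these groups, which were known, so their differences are a description. No p-value is printed for any of them, and calls from the fit over all genes are counted beside the share of all genes called, without support being drawn from them.

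mTORC1 promotes protein synthesis and growth and restrains autophagy, and it is switched on at the surface of the lysosome by the Rag GTPases when amino acids are present. GATOR1, made of Depdc5, Nprl2 and Nprl3, turns the Rag GTPases off, and GATOR2 opposes GATOR1. The sensors Castor1 (for arginine) and the sestrins Sesn1 and Sesn2 (for leucine) bind GATOR2 when their amino acid is scarce. The folliculin complex of Flcn with Fnip1 or Fnip2 acts on RagC or RagD, the other partner of the Rag pair, and governs which substrates mTORC1 reaches, among them the transcription factors of the MiT/TFE family. In macrophages activated by LPS, mTORC1 is among the pathways that support glycolysis and protein synthesis.

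Values were FPKM, which scale reads by exon length and library size, so levels can be set beside each other across genes only roughly. The length counts all annotated exons of a gene, whichever of its transcripts are expressed. Fold changes are on the log2(FPKM + 0.1) scale and come from limma, and a gene was called at an adjusted p under 0.05 over all genes with a mean of at least 0.5 FPKM in the comparison. Of the 10 genes, 8 passed this minimum, and each of the 8 also had an NC siRNA mean of at least 0.5 FPKM. Sesn3 and Rragd lay under it and were not tested. Recovered depth ranged from 32758730 to 47149258 reads per library, and the reads behind a value are given where they are few.

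The targeted genes were checked first. Sfrp2 had 2 reads in each NC siRNA library and 2 to 4 in the others, so its knockdown was not detectable at this depth. Rab6a averaged 25.7 ± 1.48 FPKM (SD, n = 3) with NC siRNA and 20.7 ± 0.445 with RAB6A siRNA, a log2 fold change of -0.31 (SE 0.06, adjusted p = 0.00240, limma). Most of its RNA thus remained with RAB6A siRNA. Between RAB6A siRNA and NC siRNA 36.5% of the 12712 genes tested were called lower, so such a call is not particular to the targeted gene. All 8 macrophage markers examined were expressed, and their summed level was 2961 to 3255 FPKM with NC siRNA and 2035 to 2184 with RAB6A siRNA. Most of that gap was Lyz2, which averaged 872 and 214 FPKM. Lower too were Csf1r at 73.6 and 27.0 FPKM, Spi1 at 130 and 62.9, Fcgr1 at 66.6 and 39.9 and Cd68 at 1850 and 1682. Adgre1 averaged 56.3 and 56.3, Itgam 23.1 and 24.7 and Ptprc 18.3 and 20.6. The sum of 5 genes of the LPS response was 3861 to 4104 FPKM with NC siRNA and 1739 to 1747 with RAB6A siRNA, mostly through Acod1, which averaged 2458 and 624 FPKM. Of the same 5, Tnf averaged 1050 and 659 FPKM and Il6 95.9 and 49.8, while Nos2 averaged 340 and 392 and Il1b 15.0 and 17.4. These shifts ran alongside every RAB6A siRNA difference below, and their part in them was not tested. Fewer cells of a type and less RNA per cell cannot be told apart in bulk samples.

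The promoters of the 3 genes with the largest differences between RAB6A siRNA and NC siRNA are shown, because these genes were higher together. They are RefSeq sequences on GRCm38.p6, 5′ to 3′ on the + strand, ending just before the RefSeq start for Castor1 and Fnip1, and for Castor2 before the GENCODE M21 start, which lies upstream of the RefSeq start. The window of Castor2 is chr5:134099498-134099710, that of Castor1 chr11:4217975-4218224 and that of Fnip1 chr11:54437929-54438178. Capitals mark matches to CACGTG, the E-box type read by MiT/TFE factors, or to the GC box GGGCGG, which reads CCGCCC on the other strand.
Castor2: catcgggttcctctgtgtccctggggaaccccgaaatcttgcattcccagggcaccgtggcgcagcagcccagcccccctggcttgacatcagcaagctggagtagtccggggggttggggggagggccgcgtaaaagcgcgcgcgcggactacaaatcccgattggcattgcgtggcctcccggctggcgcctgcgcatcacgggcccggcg
Castor1: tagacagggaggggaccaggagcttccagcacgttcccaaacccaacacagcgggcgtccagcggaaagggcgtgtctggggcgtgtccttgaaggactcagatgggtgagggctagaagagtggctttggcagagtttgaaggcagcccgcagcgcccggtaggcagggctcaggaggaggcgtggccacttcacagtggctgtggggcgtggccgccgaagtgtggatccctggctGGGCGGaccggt
Fnip1: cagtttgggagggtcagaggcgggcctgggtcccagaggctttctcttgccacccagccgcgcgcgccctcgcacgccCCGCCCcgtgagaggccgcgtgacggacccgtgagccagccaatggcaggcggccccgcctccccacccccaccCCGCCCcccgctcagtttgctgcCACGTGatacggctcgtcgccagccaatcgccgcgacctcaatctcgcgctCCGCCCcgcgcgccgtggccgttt
Within 250 bases before to 50 bases after the RefSeq start, searched on both strands, CACGTG was found in 1 of the 10 genes, Fnip1, where it begins 75 bases before the RefSeq start, and in 7.15% of 32851 promoters. GGGCGG was found in 6 of the 10 genes (Castor1, Depdc5, Fnip1, Nprl3, Sesn1 and Sesn3) and in 35.7% of promoters. GTAAACA, a forkhead motif, was found in Sesn1 and in 3.65% of promoters, and TGCATCA, part of the ATF4 element, in none of the 10 and in 3.15%. The Castor2 window held none of the 4 motifs. GC content ran from 52.0% to 71.0% over the 11 promoters of these genes, beside a median of 52.7% over all promoters.

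The genes of the arginine sensor Castor1 and of its paralog Castor2 differed most between RAB6A siRNA and NC siRNA. Castor2 (ENSMUSG00000015944, chromosome 5, 134099711 to 134144343, + strand in GENCODE M21), a paralog of Castor1 that pairs with it, stood at 3.73, 3.35 and 3.53 FPKM with NC siRNA. With SFRP2 siRNA it stood at 3.72, 3.45 and 3.42 FPKM, and with RAB6A siRNA at 29.2, 27.7 and 27.7 FPKM. The NC siRNA and SFRP2 siRNA libraries were mixed, and the RAB6A siRNA libraries stood far above both. The means were 3.54 ± 0.189, 3.53 ± 0.168 and 28.2 ± 0.832 FPKM (SD, n = 3 each), a ratio of 7.98 between RAB6A siRNA and NC siRNA. The log2 fold change was 2.96 (SE 0.06), and 3.13% of the 12712 genes tested had a larger absolute one. Each RAB6A siRNA value of Castor2 rested on 6870 to 8019 reads.

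Castor1 (ENSMUSG00000020424, chromosome 11, 4218225 to 4222409, + strand), the arginine sensor itself, was the scarcer of the pair. It stood at 0.794, 0.984 and 0.956 FPKM with NC siRNA, at 0.752, 0.605 and 0.622 with SFRP2 siRNA, and at 3.65, 4.45 and 3.24 with RAB6A siRNA. All 3 RAB6A siRNA libraries lay above the other 6, and all 3 SFRP2 siRNA libraries lay below those of NC siRNA. The log2 fold change of RAB6A siRNA against NC siRNA was 1.93 (SE 0.15), and that of SFRP2 siRNA against NC siRNA was -0.41 (SE 0.18), which was not called. These SFRP2 siRNA values rest on 34 to 48 reads, against 52 to 73 with NC siRNA.

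Together the pair averaged 4.45 ± 0.102 FPKM with NC siRNA, 4.19 ± 0.247 with SFRP2 siRNA and 32.0 ± 0.944 with RAB6A siRNA (SD, n = 3 each). Castor1 made up 20.5% of that sum with NC siRNA, 15.7% with SFRP2 siRNA and 11.8% with RAB6A siRNA. The ratio of Castor2 to Castor1 within a library, which no scaling between libraries can move, was 3.40 to 4.69 with NC siRNA, 4.95 to 5.70 with SFRP2 siRNA and 6.24 to 8.56 with RAB6A siRNA. The 3 ranges did not overlap, and the share of such gaps over all gene pairs was not counted. Between SFRP2 siRNA and NC siRNA the groups did not overlap for 24.7% of 12017 single genes tested. Castor1 rests there on 34 to 48 and 52 to 73 reads, and the ratio was not corrected for GC content.

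**Figure D1:**
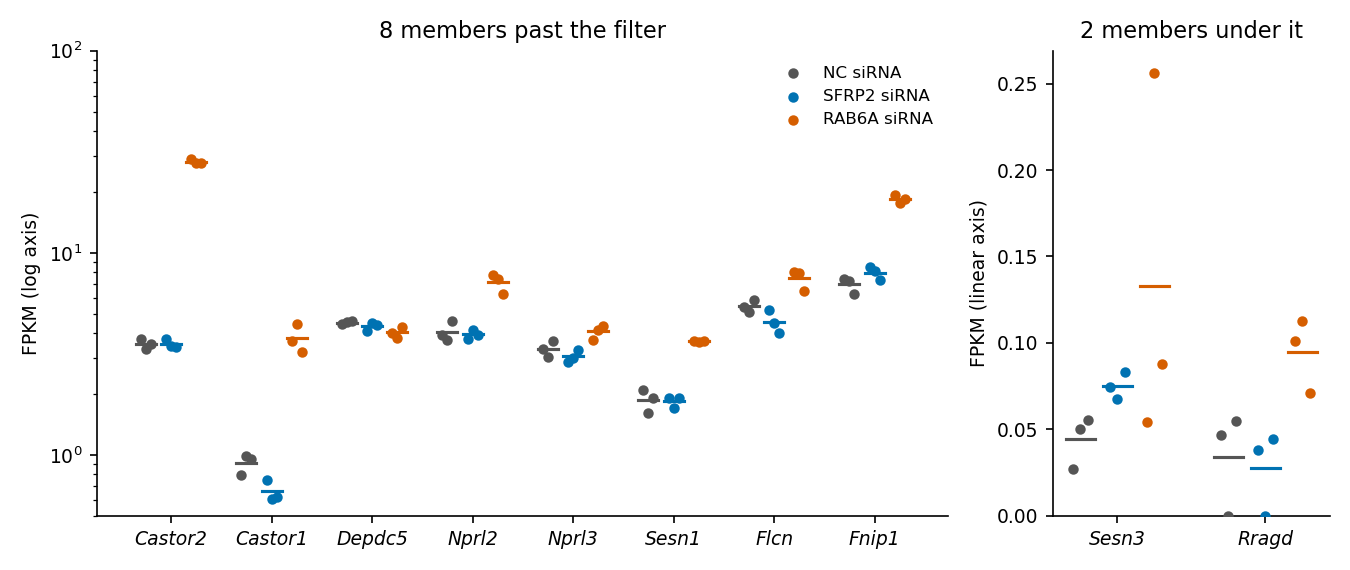
FPKM of the 10 genes in each of 9 libraries, by siRNA group. Points are libraries and bars are means of 3, on a log axis for the 8 tested genes and a linear axis for Sesn3 and Rragd. Castor2 with RAB6A siRNA lies between 27.7 and 29.2 FPKM, while no other library exceeds 3.73 FPKM.

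The subunits of GATOR1 differed unequally between the groups. Nprl2 (ENSMUSG00000010057, chromosome 9, 107542226 to 107545706, + strand) stood at 3.93, 3.70 and 4.58 FPKM with NC siRNA, 3.76, 4.15 and 3.92 with SFRP2 siRNA, and 7.80, 7.46 and 6.22 with RAB6A siRNA. Every RAB6A siRNA library was above every other library, and the log2 fold change against NC siRNA was 0.80 (SE 0.11). Nprl3 (ENSMUSG00000020289, chromosome 11, 32225628 to 32267707, - strand), the partner of Nprl2, stood at 3.34, 3.07 and 3.65 FPKM with NC siRNA, 2.88, 3.01 and 3.31 with SFRP2 siRNA, and 3.72, 4.17 and 4.35 with RAB6A siRNA. The groups did not overlap between RAB6A siRNA and NC siRNA, but the gap between the nearest libraries was small.

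The log2 fold change of Nprl3 was 0.28 (SE 0.10) and was called, but the call was lost under 6 of 17 alternatives, with no filter on low values (0.28), with quantile normalization (0.22), and without NC siRNA replicate 1 (0.28), NC siRNA replicate 2 (0.22), RAB6A siRNA replicate 2 (0.26) or RAB6A siRNA replicate 3 (0.23). Of the exon bases of Nprl3, 17.7% also lie in Mpg, a DNA glycosylase gene on the other strand, and whether counting used strand is not stated. Mpg averaged 1.02 ± 0.101 FPKM with NC siRNA and 1.99 ± 0.218 with RAB6A siRNA (SD, n = 3 each), so Nprl3 is uncertain for this reason too. The part of these shared bases in the difference of Nprl3 was not tested.

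Depdc5 (ENSMUSG00000037426, chromosome 5, 32863701 to 32994236, + strand), the largest GATOR1 subunit, stood at 4.42, 4.54 and 4.58 FPKM with NC siRNA, 4.11, 4.48 and 4.39 with SFRP2 siRNA, and 4.01, 3.81 and 4.29 with RAB6A siRNA. The RAB6A siRNA libraries were the lowest of the 3 groups on average, yet the highest of them lay within the SFRP2 siRNA range. The log2 fold change against NC siRNA was -0.16 (SE 0.07) and was not called. It was called with quantile normalization (-0.19), with voom (-0.17) and without RAB6A siRNA replicate 3 (-0.20), and it turned to 0.06 when GC content and gene length were corrected for, so no direction is given. Within a library, the ratio of Nprl2 to Depdc5 was 0.901 ± 0.0927 with NC siRNA and 1.79 ± 0.290 with RAB6A siRNA (SD, n = 3 each). That of Nprl3 to Depdc5 was 0.742 ± 0.0613 and 1.01 ± 0.0838.

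Among the sestrins, Sesn1 (ENSMUSG00000038332, chromosome 10, 41809935 to 41908424, + strand), a leucine sensor and p53 target, stood at 2.09, 1.60 and 1.92 FPKM with NC siRNA. It stood at 1.92, 1.71 and 1.91 with SFRP2 siRNA and at 3.66, 3.62 and 3.68 with RAB6A siRNA. The RAB6A siRNA values were higher than all others and nearly identical, and the log2 fold change against NC siRNA was 0.94 (SE 0.11). Sesn2, the most abundant sestrin here, named after its values were seen, averaged 16.1 ± 0.506 FPKM with NC siRNA and 13.5 ± 0.301 with RAB6A siRNA, a log2 fold change of -0.25 (SE 0.05, adjusted p = 0.00398, limma). The share of Sesn1 in the summed sestrins was 10.4% with NC siRNA, 10.4% with SFRP2 siRNA and 21.1% with RAB6A siRNA, while the sum was 18.1 ± 0.549, 17.8 ± 1.10 and 17.3 ± 0.248 FPKM.

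Sesn3 (ENSMUSG00000032009, chromosome 9, 14275067 to 14333101, + strand), a FoxO target, was near the detection limit. It stood at 0.0268, 0.050 and 0.0555 FPKM with NC siRNA (17 to 36 reads), at 0.0743, 0.0674 and 0.0829 with SFRP2 siRNA (40 to 46 reads), and at 0.0541, 0.256 and 0.0880 with RAB6A siRNA. All 3 SFRP2 siRNA libraries lay above those of NC siRNA, and 1 RAB6A siRNA library stood apart. That library, replicate 2, had 148 reads of Sesn3 against 30 and 44 in the other RAB6A siRNA libraries. The RAB6A siRNA mean was 0.133 FPKM with it and 0.0710 without it, and the ratio to NC siRNA was 3.01 and 1.61.

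RAB6A siRNA replicate 2 also stood apart in other genes. By a definition chosen after the data were seen, at least 50 reads and more than 2.5 times the highest other library of its group, it had 45 genes, Sesn3 and the keratin gene Krt8 among them, and the other 8 libraries had 3 to 19. The summed level of 5 epithelial markers was 2.83 FPKM there, 1.11 and 1.13 FPKM in the other RAB6A siRNA libraries, 0.505 to 1.24 with NC siRNA and 0.308 to 1.20 with SFRP2 siRNA. Epithelial markers were not alone in this. The sum of 5 fibroblast markers was also highest in replicate 2, at 3.03 FPKM. It was 1.91 and 2.61 in the other RAB6A siRNA libraries, 1.27 to 2.47 with NC siRNA and 1.49 to 2.48 with SFRP2 siRNA. The T cell marker sum was highest there too, at 0.117 FPKM. The sum of 4 endothelial markers was not, at 1.09 FPKM against 1.17 in replicate 3. In replicate 2, Krt18 stood at 1.27, Krt8 at 1.01, Epcam at 0.361 and Cdh1 at 0.185 FPKM, and Krt5 at 0. The part of these transcripts in the Sesn3 value was not tested.

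**Figure D2:**
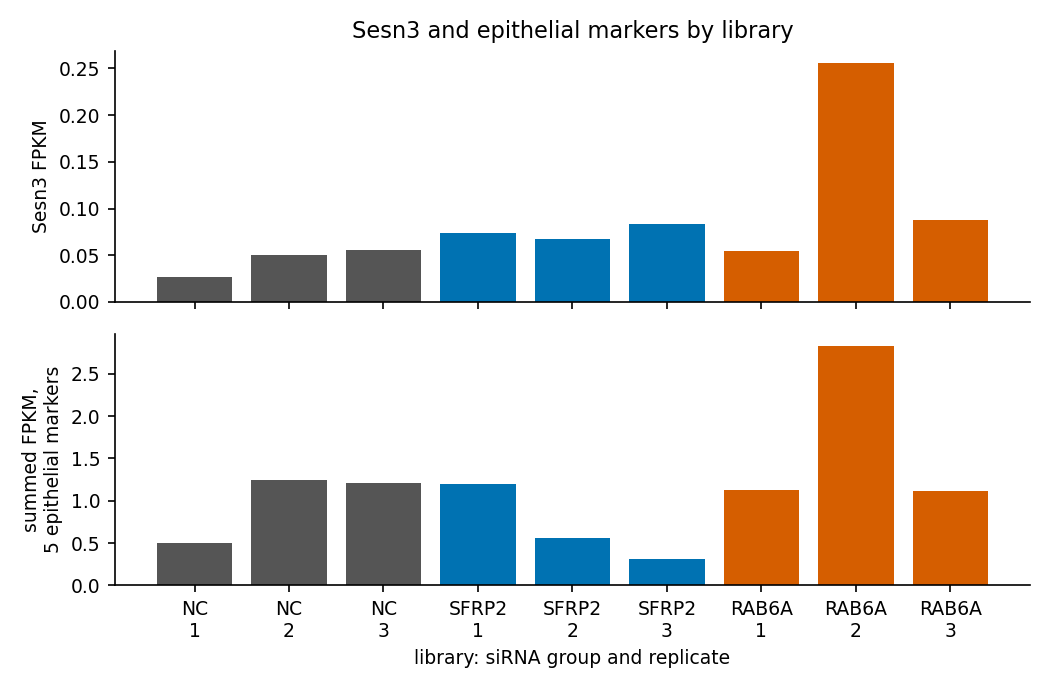
FPKM of Sesn3 (top) and the summed FPKM of 5 epithelial markers (bottom), both on linear axes, in each of 9 libraries. RAB6A siRNA replicate 2 has the highest bar in both panels, at 0.256 and 2.83 FPKM.

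In the folliculin complex, Fnip1 (ENSMUSG00000035992, chromosome 11, 54438199 to 54518235, + strand), a partner that folliculin needs for its action on the Rag GTPases, stood at 7.42, 7.26 and 6.23 FPKM with NC siRNA. It stood at 8.52, 8.11 and 7.31 with SFRP2 siRNA and at 19.3, 17.7 and 18.4 with RAB6A siRNA. The first 2 groups overlapped, and the RAB6A siRNA libraries were well above both. The log2 fold change against NC siRNA was 1.40 (SE 0.08), with 18.4% of genes tested having a larger absolute one.

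Flcn (ENSMUSG00000032633, chromosome 11, 59791408 to 59810016, - strand) stood at 5.41, 5.07 and 5.82 FPKM with NC siRNA, 5.23, 4.47 and 4.0 with SFRP2 siRNA, and 8.0, 7.97 and 6.45 with RAB6A siRNA. RAB6A siRNA was again above both other groups, by a log2 fold change of 0.45 (SE 0.10) against NC siRNA. Fnip2, the alternative partner, averaged 29.0 ± 2.59 FPKM with NC siRNA and 32.0 ± 0.568 with RAB6A siRNA, a difference that was not called (log2 fold change 0.15, SE 0.07, adjusted p = 0.0969, limma). It was called higher with quantile normalization (0.29), with the correction for GC content and gene length (0.41) and without NC siRNA replicate 1 (0.22). Fnip1 thus made up 19.4% of the summed partners with NC siRNA, 21.4% with SFRP2 siRNA and 36.6% with RAB6A siRNA.

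Rragd (ENSMUSG00000028278, chromosome 4, 32983037 to 33022180, + strand), which encodes RagD and is a known MiT/TFE target, stood at 0.0465, 0 and 0.0546 FPKM with NC siRNA, 0.0381, 0 and 0.0445 with SFRP2 siRNA, and 0.101, 0.112 and 0.0708 with RAB6A siRNA. These were 0 to 12, 0 to 8 and 12 to 22 reads, and a count of 0 allows up to 3 reads, or 0.0123 FPKM in NC siRNA replicate 2 and 0.0149 FPKM in SFRP2 siRNA replicate 2, for counting error only. The RAB6A siRNA libraries were the highest, but the gene was not tested at this level. Its close relative Rragc averaged 27.3 ± 0.671 FPKM with NC siRNA and 17.7 ± 0.282 with RAB6A siRNA, so Rragd made up 0.124% and 0.531% of the pair.

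**Figure D3:**
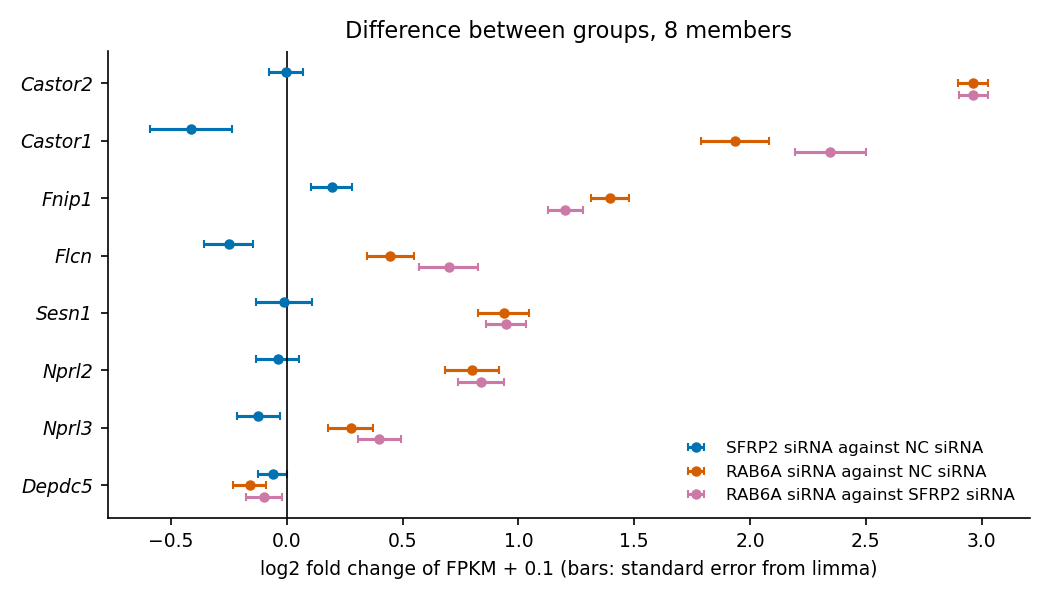
log2 fold change of FPKM + 0.1 with its standard error from limma for the 8 tested genes in 3 comparisons. In both comparisons with RAB6A siRNA 7 genes lie to the right of 0, from Castor2 at 2.96 down to Nprl3 at 0.28 and 0.40, and Depdc5 lies at -0.16 and -0.10.

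Counted over the 8 tested genes, 7 were called higher with RAB6A siRNA than with NC siRNA and none lower, where 37.6% of the 12712 genes tested were called higher, 36.5% lower and 74.1% in either direction. Castor1, Castor2 and Fnip1 also passed an absolute log2 fold change of 1, all 3 higher, as did 30.1% of genes tested, with 17.3% higher. Between RAB6A siRNA and NC siRNA the groups of all 8 tested genes did not overlap, 7 higher and Depdc5 lower, beside 77.4% of genes tested, made up of 39.2% higher and 38.2% lower. For Depdc5 this holds for the FPKM values only. Its fold change was not called and changed sign with the correction for GC content and gene length. The 7 genes were also called higher with RAB6A siRNA than with SFRP2 siRNA, where 37.6% of 12764 genes were called higher, 35.8% lower and 73.4% in either direction. This comparison uses the same RAB6A siRNA libraries and is no independent repeat. Its log2 fold changes were 2.96 (SE 0.06) for Castor2, 2.35 (SE 0.15) for Castor1, 1.20 (SE 0.07) for Fnip1, 0.95 (SE 0.09) for Sesn1, 0.84 (SE 0.10) for Nprl2, 0.70 (SE 0.13) for Flcn and 0.40 (SE 0.09) for Nprl3. Depdc5 was at -0.10 (SE 0.08) and was not called.

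With SFRP2 siRNA none of the 8 was called against NC siRNA, and 0% of 12017 genes were called by limma, while 2220 had an unadjusted p under 0.05 and voom on recovered reads called 42. The study's paper does report genes that differed with SFRP2 siRNA in this line. It used the count model DESeq2, which was not run here. Among the 8, 1 had an unadjusted p under 0.05 with limma, and voom called none. The log2 fold changes lay between -0.41 (Castor1) and 0.19 (Fnip1, SE 0.09), with Flcn at -0.25 (SE 0.11) and the other 5 between -0.12 and 0.00. Over all genes the fold changes of this comparison went with GC content (Spearman's rho -0.50 across 11903 genes of the same libraries, a description). Castor1 and Flcn have 57.2% and 55.3% GC and Fnip1 39.8%, and with the correction for GC content and gene length they stood at -0.29, -0.16 and 0.02. With a pseudocount of 1, Castor1 stood at -0.20. Castor1 was the only one of the 8 whose groups did not overlap, beside 24.7% of genes tested, 13.9% lower as Castor1 was. The 2 comparisons with NC siRNA share its libraries.

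The order of levels differed between the groups. With NC siRNA it ran from Fnip1 at 6.97 FPKM through Flcn at 5.43 to Depdc5, Nprl2, Castor2 and Nprl3, of which each overlapped the next, then Sesn1, Castor1, and last Sesn3 and Rragd, which overlapped. With SFRP2 siRNA the order was the same, with Flcn, Depdc5 and Nprl2 overlapping in turn. With RAB6A siRNA Castor2 came first at 28.2 FPKM, above Fnip1 at 18.5. Flcn and Nprl2 followed and overlapped, and Nprl3, Depdc5, Castor1 and Sesn1 then overlapped in turn.

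Ratios within a library set the genes against their partners. Castor2 to Depdc5 was 0.784 ± 0.0535 with NC siRNA and 7.02 ± 0.470 with RAB6A siRNA (SD, n = 3 each). Castor2 to Mios, a GATOR2 subunit, was 0.814 ± 0.0842 and 13.5 ± 1.39. Both passed from below to above 1, a mark that depends on the exon lengths used. Fnip1 to Fnip2 was 0.241 ± 0.0193 and 0.577 ± 0.0163, Fnip1 to Flcn 1.29 ± 0.193 and 2.5 ± 0.330, and Sesn1 to Sesn2 0.116 ± 0.0165 and 0.270 ± 0.00395.

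**Figure D4:**
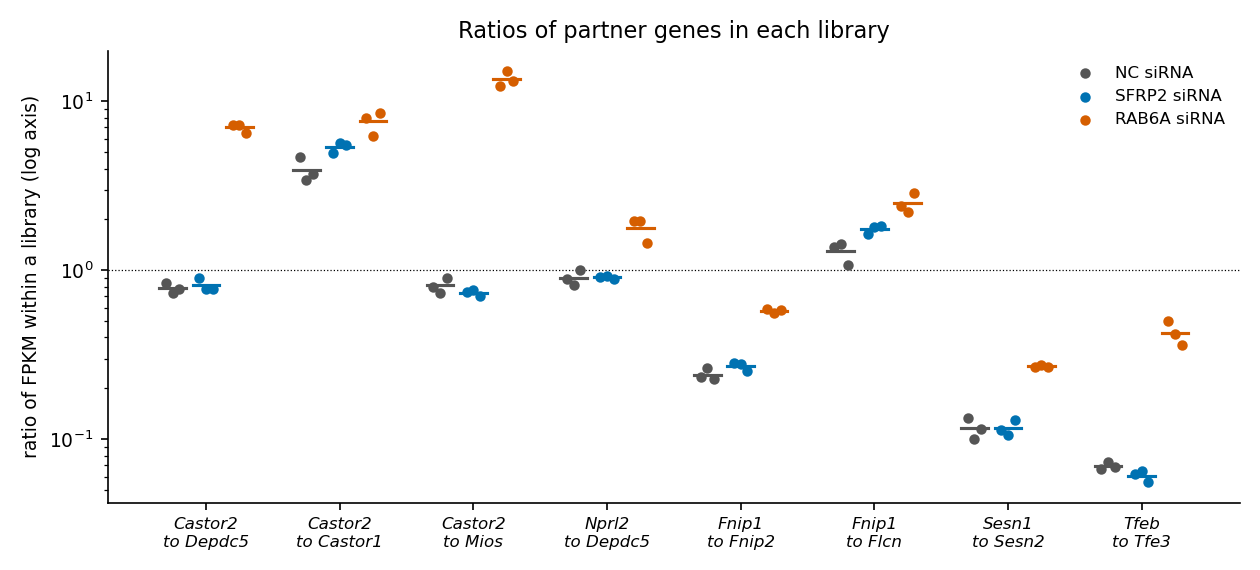
Ratio of FPKM between partner genes within each of 9 libraries, on a log axis. Points are libraries, bars are means of 3 and the dotted line is a ratio of 1. Castor2 to Depdc5 lies between 0.738 and 0.906 in the NC siRNA and SFRP2 siRNA libraries and between 6.47 and 7.29 in the RAB6A siRNA libraries.

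The other genes of the pathway were read from 10 lists holding 59 genes, of which 57 had a row and 55 were tested between RAB6A siRNA and NC siRNA. Of the 55, 17 were called higher, 23 lower and 15 were not called, or 72.7% called, close to the 74.1% of all genes tested. Those 74.1% were made up of 37.6% higher and 36.5% lower, and the counts of each list below stand beside these shares. Their median log2 fold change was -0.07, beside 0.03 over all genes tested. Between SFRP2 siRNA and NC siRNA limma called none of 56, with 11 at an unadjusted p under 0.05, and voom called none.

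Among the other nutrient sensors, Slc38a9, the lysosomal arginine sensor, averaged 1.13 ± 0.0193 FPKM with NC siRNA and 2.83 ± 0.0240 with RAB6A siRNA (log2 fold change 1.25, SE 0.09, adjusted p = 1.46e-05, limma). Bmt2, the sensor of S-adenosylmethionine also called SAMTOR, was higher by a log2 fold change of 0.97 and the leucyl-tRNA synthetase gene Lars lower, at -0.88. Of the 4 genes of this list, 2 rose and 2 fell, Lars and Sesn2.

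GATOR2, which opposes GATOR1, had 1 of 5 genes higher (Wdr59, 0.32) and 2 lower. Wdr59 lost its call with quantile normalization (0.21) and without NC siRNA replicate 1 (0.34) or 2 (0.24) or RAB6A siRNA replicate 1 (0.29) or 3 (0.32). The lower genes were Mios, at -1.02 (SE 0.12, adjusted p = 1.33e-04, limma), and Seh1l, at -0.54. KICSTOR, which holds GATOR1 at the lysosome, had Itfg2 lower, at -0.62, and Kptn, at -0.58. Of the 8 genes of the Rag GTPases and of Ragulator, their lysosomal anchor, 2 were higher, among them Lamtor3 at 0.66, and 3 were lower, Rragb at -1.09, Rragc at -0.62 and, named after its values were seen, Lamtor5 at -0.18. Lamtor5 lost its call under 5 of 17 alternatives, among them quantile normalization (-0.03) and the fits without NC siRNA replicate 1 (-0.18) or 3 (-0.17) or RAB6A siRNA replicate 1 (-0.17).

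Of mTORC1 itself and its Rheb and TSC input, 1 of 8 tested genes rose (Tsc1, 0.42) and 4 fell. Among the 4 was Rheb, the GTPase that activates mTORC1, named after its values were seen, at -0.27. It was called under 9 of 17 alternatives, lost its call without NC siRNA replicate 1 (-0.21) or 2 (-0.25) or RAB6A siRNA replicate 1 (-0.28) or 2 (-0.25), and turned to 0.01 with the correction for GC content and gene length. The steepest fall was that of Mlst8, an mTORC1 subunit, which averaged 5.24 ± 0.733 FPKM with NC siRNA and 1.26 ± 0.25 with RAB6A siRNA (log2 fold change -1.98, SE 0.16, adjusted p = 2.22e-05, limma). Mtor, the kinase, fell by 0.60 on the log2 scale. Of 6 AMPK genes tested, none rose and 3 fell, where 37.6% of all genes tested were called higher and 36.5% lower. The 3 were Prkaa1 at -0.78, Prkab2 at -0.38 and the upstream kinase Stk11 at -0.19. Prkab2 lost its call under 6 of 17 alternatives, with the correction for GC content and gene length (-0.06), with no filter on low values (-0.38), and without NC siRNA replicate 2 (-0.33) or 3 (-0.35) or RAB6A siRNA replicate 1 (-0.39) or 2 (-0.29). Stk11 lost it under 3 of 17, among them quantile normalization (-0.08) and the fit without NC siRNA replicate 3 (-0.16).

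Downstream, the substrate genes Ulk1, which starts autophagy, and Eif4ebp1, a translation repressor, rose by 1.88 and 1.24 on the log2 scale, while Larp1, which binds mRNAs of the translation machinery, stood at -1.45. Of the MiT/TFE factors, Tfeb averaged 0.976 ± 0.0327 FPKM with NC siRNA and 3.55 ± 0.437 with RAB6A siRNA (log2 fold change 1.75, SE 0.12, adjusted p = 9.80e-06, limma). Mitf was higher, at 0.67, and Tfe3 lower, at -0.75, so that the ratio of Tfeb to Tfe3 within a library passed from 0.0693 ± 0.0036 to 0.426 ± 0.0713. Of 12 ATF4, p53 and FoxO factors and targets, 7 rose and 4 fell. Ddit4, an inhibitor of mTORC1 also called REDD1, stood at 2.54 and Ddit3, the stress factor CHOP, at 1.99, while Chac1, an ATF4 target, stood at -1.95.

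**Figure D5:**
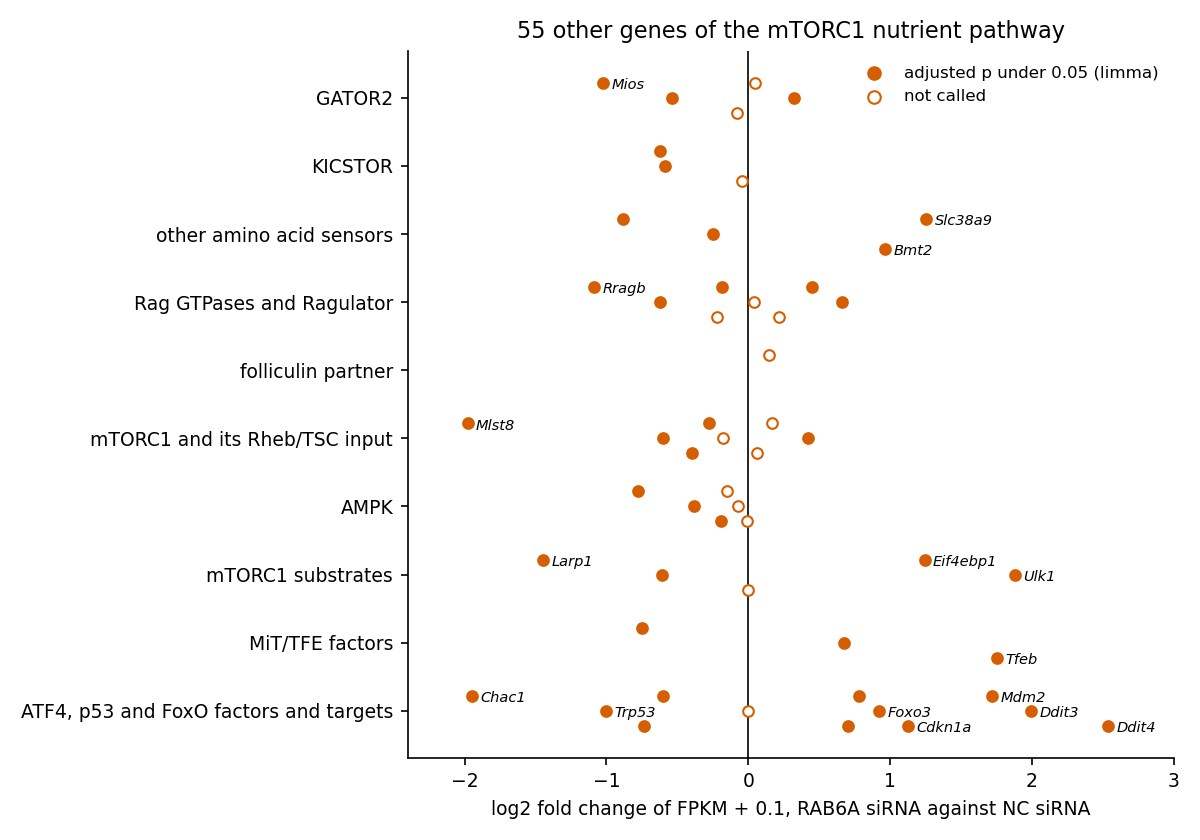
log2 fold change of FPKM + 0.1 between RAB6A siRNA and NC siRNA for 55 genes of 10 lists. Filled points were called at an adjusted p under 0.05 (limma) and open points were not. The points spread to both sides of 0, from Mlst8 at -1.98 to Ddit4 at 2.54.

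The genes most like 3 of the 10 in pattern were sought by the root mean square difference of log2 values, each gene centred, over 9 libraries and 12371 genes. Nearest to Castor2 were Fbxl20 (0.09), which averaged 0.874, 0.827 and 7.06 FPKM with NC, SFRP2 and RAB6A siRNA, and Tnfsf9 (0.10). Nearest to Castor1 were Anxa6 (0.08), at 6.68, 5.25 and 26.4 FPKM, and Tspo (0.12). Nearest to Fnip1 were Fam13b (0.05), at 3.26, 3.85 and 8.77 FPKM, and N4bp2l2 (0.06).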

How the data were processed

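Cellular RNA of 9 RAW264.7 libraries was sequenced as paired-end mRNA-seq, and the values the authors deposited are FPKM. The submitters' processing notes name HISAT2, featureCounts and Subread, while versions, genome build and annotation are not given in the sources used here. Ensembl identifiers were named from GENCODE M21 (GRCm38), which matched 27533 of 28137. FPKM times exon length were whole multiples of 1 read, within 0.03, for 27082 genes (98.4% of those named) in all 9 libraries, which gave the depths and reads stated. Groups followed the labels, 3 libraries each. limma 3.58.1 in R 4.3.3 (eBayes with a trend, Benjamini-Hochberg adjustment) tested log2(FPKM + 0.1) on the 6 libraries of a comparison, in place of the count model that the study's methods name. It was tested on simulated data. A fold change on this scale understates the change of low genes.

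The 10 genes and the lists were chosen with earlier results of these data known. Other pathway genes were named by the 3 largest absolute log2 fold changes of each list between RAB6A siRNA and NC siRNA. A gene that this rule would name is not reported here. The replicate numbers did not pair the libraries. Nearest patterns were sought for Castor2, Castor1 and Fnip1. Alternatives were other pseudocounts (1 and 0.01), no filter or a minimum of 1 FPKM, median-of-ratios scaling, quantile normalization, no trend, the replicate block, all 9 libraries, voom, a correction for GC content and length, and each library left out. Wound tissue was not analysed here.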

Additional observations from a re-analysis of the deposited data

How the results depend on the processing

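Between SFRP2 siRNA and NC siRNA, limma called 0 genes, voom on recovered reads called 42, and leaving out each library in turn gave 0 to 1 (1 without NC siRNA replicate 1). Between RAB6A siRNA and NC siRNA the number of genes called stayed within 1.5 times of 9418 under every alternative run. The values of the 8 genes kept their sign in 135 of 136 values in each comparison with RAB6A siRNA, Depdc5 with the correction for GC content and gene length being the exception in both (0.06 and 0.12), and in 122 of 135 between SFRP2 siRNA and NC siRNA. That correction moved Sesn1 to 1.26 and Castor1 to 1.64 against NC siRNA, and a pseudocount of 1 moved Castor1 to 1.32. Castor1, Castor2, Nprl2, Sesn1, Flcn and Fnip1 were called with RAB6A siRNA against NC siRNA under all 17 alternatives, Nprl3 under 11. The alternatives reuse the same libraries, and 74.1% of all genes tested were called in the fit used above. The share of all genes called under every alternative was not counted, and no support is drawn from these counts. The correlation of deviations between same-numbered libraries averaged -0.01 over 9 pairs, so the numbers pair nothing, and with the replicate block 9103 genes were called between RAB6A siRNA and NC siRNA and 0 between SFRP2 siRNA and NC siRNA, and Lamtor5, Rheb and Stk11 lost their calls between RAB6A siRNA and NC siRNA. Depth limits Sesn3 and Rragd, and the Castor1 values with SFRP2 siRNA.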
